A study of Mus musculus with 21 samples.

Results

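HS-2 is a DNase I hypersensitive site of the beta-globin locus control region, a cluster of regulatory sites upstream of the embryonic gene Hbb-y. Its contacts were read out by 4C-seq, which measures how often each part of a locus is ligated to 1 chosen fragment, the viewpoint, in fixed nuclei. The libraries were chosen by their labels as those with HS-2 as the viewpoint, which gave 2 of the 21 libraries of the series, 1 from fetal liver and 1 from fetal brain. Both came from C57BL/6 mice at 14.5 days post coitum, from pools of 10 to 12 embryos. About 40000000 cells were fixed in each, equal to 2 livers or 4 brains, in 2% formaldehyde for 10 minutes. DpnII was the first restriction enzyme and Csp6I the second in both. The labels name no transgene or treatment. The title of the liver library holds a longer number than that of the brain library, and the sources used here do not say whether it joins several runs.

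There was 1 library in each group, so no test was run, no p-value was computed and no spread between animals is known. The tissues were whole organs with mixed cells, so contacts in more cells and stronger contacts per cell cannot be told apart. 4C-seq gives no expression values, so the labelled tissues could not be checked against marker genes.

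The locus control region is known as the set of erythroid enhancers that drives high expression of the beta-like globin genes, and HS-2 is its best studied classical enhancer. Fetal liver is the main site of red cell formation at this stage and expresses the adult beta-globin genes, while fetal brain is not an erythroid tissue. Sites outside the gene cluster, 3' HS-1 below the genes and HS-62 beyond the control region, are known to bind CTCF, a factor that holds the bases of chromatin loops. The comparison asks which parts of the locus HS-2 contacts in an erythroid and in a non-erythroid tissue.

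By order in the RefSeq gene table (GRCm38.p6), the olfactory receptor genes Olfr69, Olfr68 and Olfr67 are followed by the adult genes Hbb-bt and Hbb-bs. Then come the pseudogenes Gm15115 and Hbb-bh3, the gene Hbb-bh2, the embryonic genes Hbb-bh1 and Hbb-y, and on the other flank Olfr66. C57BL/6 mice carry Hbb-bs and Hbb-bt where other strains carry Hbb-b1 and Hbb-b2, and the viewpoint that the labels call the Hbb-b1 promoter is taken here as that of the adult gene nearer the control region, listed as Hbb-bs. The signal files use mm9, so genes were placed by order alone, and the 2 builds are not compared by coordinate. Of the 6 Hbb entries in the table, 4 had a promoter sequence.

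The 250 bases before the start of 3 globin genes are shown because the highest liver position beyond 10 kb of HS-2 lay at the adult promoter. Hbb-y is shown beside the adult genes as an embryonic gene, and its contact was not measured. All are on the minus strand of GRCm38.p6, from RefSeq, at chr7:103827929-103828178 for Hbb-bs, chr7:103813924-103814173 for Hbb-bt and chr7:103853208-103853457 for Hbb-y. Capitals mark CACCC, the letters of a box bound by the erythroid factor KLF1, and CCAAT, the letters of a common promoter box, on either strand.
Hbb-bs: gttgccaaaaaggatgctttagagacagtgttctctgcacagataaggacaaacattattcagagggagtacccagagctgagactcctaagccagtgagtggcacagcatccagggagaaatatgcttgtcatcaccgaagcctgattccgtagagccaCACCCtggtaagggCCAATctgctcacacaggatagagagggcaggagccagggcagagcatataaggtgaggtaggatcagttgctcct
Hbb-bt: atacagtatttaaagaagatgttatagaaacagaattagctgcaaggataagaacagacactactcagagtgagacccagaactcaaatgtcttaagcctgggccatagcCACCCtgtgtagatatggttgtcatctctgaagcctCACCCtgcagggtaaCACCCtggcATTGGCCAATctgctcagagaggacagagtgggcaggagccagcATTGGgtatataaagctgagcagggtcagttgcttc
Hbb-y: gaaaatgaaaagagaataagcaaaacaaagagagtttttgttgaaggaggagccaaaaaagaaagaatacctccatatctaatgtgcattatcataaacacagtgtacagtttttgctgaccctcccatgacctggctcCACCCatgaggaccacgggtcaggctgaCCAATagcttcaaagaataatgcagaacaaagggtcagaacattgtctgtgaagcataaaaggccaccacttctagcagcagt

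Each of the 3 promoters shown held both boxes. The promoter of Hbb-bh2, which also had a sequence and is not shown, held neither. CACCC was found 1 time in Hbb-bs, 90 bases before its start, 1 time in Hbb-y and 3 times in Hbb-bt. CCAAT on the gene's strand began 76, 75 and 83 bases before the start of Hbb-bs, Hbb-bt and Hbb-y. Among 32851 RefSeq promoters of this length, 52% held CACCC and 33.8% held CCAAT, so either match is common. The longer form CCACACCC was in Hbb-bs and in 3.20% of all promoters. DpnII cuts at GATC and Csp6I at GTAC, so these letters set where fragments end. The Hbb-bs promoter held GATC 14 bases before its start and GTAC 182 bases before it, whereas Hbb-bt held neither and Hbb-y held GTAC alone. Over all promoters 41.9% held GATC and 31.5% held GTAC. Hbb-bs and Hbb-bt shared 73.3% of 243 aligned bases in these stretches, and Hbb-bs and Hbb-y 62.1% of 224.

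The deposited values are a signal in steps of 1000 bp, smoothed over 48 windows of 2 to 49 kb, each with a lower, a middle and a higher value. The middle value of the 6 kb window is exactly 1 at position 111007000 in both libraries, so the values are relative to the level at the viewpoint. The middle value of the 5 kb window was used unless another is named. Its highest point lay at position 111007000 of chromosome 7 in liver and 111005000 in brain, with signals of 1.06 and 1.10, so HS-2 was placed at 111006000. Positions within 10 kb of HS-2 were left out. For each library the signal was set relative to its mean over the remaining 375 shared positions, here called relative signal. That mean was 0.0127 in liver and 0.0202 in brain. Differences are log2 of liver over brain relative signal after adding 0.1 to both, and a position was called when it differed by 2-fold or more. Neighbouring positions share most of their window, so they are not independent.

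The HS-2 signal was gathered into few places in the liver library and spread along the locus in the brain library. In liver 14 positions held 50% of the signal, against 51 in brain. For 90% of the signal, 62 positions were needed in liver and 235 in brain. The top 38 positions, about 10% of all, held 82.2% of the liver signal and 42.6% of the brain signal. Positions with a signal under 1e-09, counted as empty, made up 51.5% in liver and 6.93% in brain. Of the 193 empty liver positions, 22 were empty in brain as well.

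**Figure D1:**
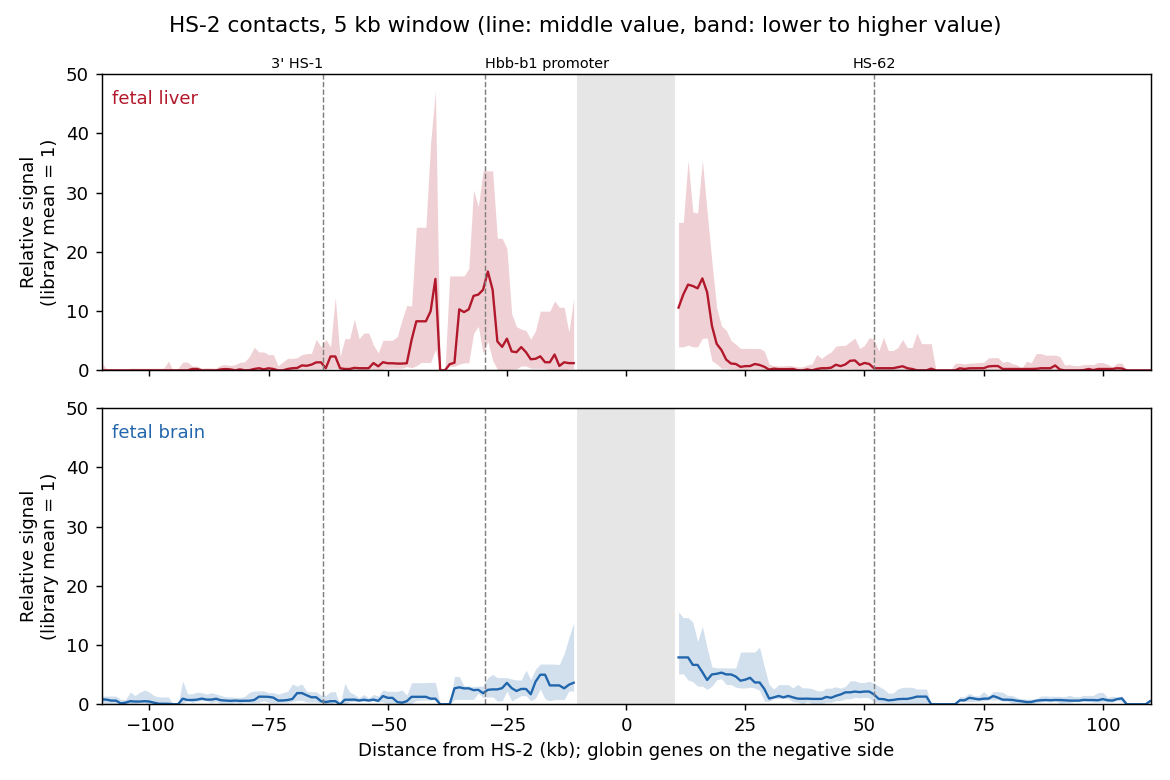
Relative signal (library mean = 1, 5 kb window) against distance from HS-2 in kb, in fetal liver (top) and fetal brain (bottom), 1 library each. Lines are the middle values, bands run from the lower to the higher value of the window, the grey block is left out, and dashed lines are the other viewpoints; liver stands at 16.7 near the Hbb-b1 promoter where brain is at 2.44.

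Relative signal at the Hbb-b1 promoter (110971500 to 110981500, 29.5 kb from HS-2) averaged 10.4 in liver and 2.58 in brain. The 10 positions of this window ran from 3.97 to 16.7 in liver and from 1.86 to 3.61 in brain. Every liver position of the window was above every brain position. The log2 difference of the means was 1.96, a ratio of 3.90. As deposited, the liver signal averaged 0.131, and its lower and higher values averaged 0.0331 and 0.326. For brain the signal was 0.0520, with 0.0226 and 0.0773 as the outer values, so these mean bands overlapped. Liver was thus higher before scaling too, with a log2 difference of 1.31. Median ranks in the window were percentile 96.7 of the liver library and 90 of the brain library, over positions at all distances. At 20 to 40 kb from HS-2, brain averaged 2.12 on the gene side and 2.46 on the far side. The gene-side bin has 20 positions and takes in all 10 of the promoter window, so only the far side is a separate level. The brain value of 2.58 at the promoter was near that far-side level of 2.46. Liver averaged 7.25 and 0.521 in the same bins.

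Over the whole locus 28 of 375 positions were called higher in liver (7.47%) and 251 were called lower (66.9%). The median difference was -1.81, so the typical position was lower in liver, and 161 of the 251 lower calls were at positions empty in liver. At the 178 positions filled in both libraries, with the same scaling, the median was -1.02. Of these, 24 were called higher and 90 lower. The balance of calls depended on how distance and scale were treated. Over a monotone decay fitted to both sides together, 15.5% were called higher and 16.5% lower, and over a decay of each side 13.3% and 9.33%. With quantile scaling, which was added after the data were seen, 18.4% were higher and 12.5% lower. In the promoter window 7 of 10 positions were called higher and 0 lower. The difference of 1.96 there was reached or passed by 15 of the 375 windows of that width along the profile.

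A technical pair gives a scale for such values. It is made of liver libraries with the alpha-globin Hba-a1 promoter as the viewpoint, from full and from 1/16 template. Full template was higher by 2-fold or more at 2.45% of 326 positions and lower at 65.6%. The median difference of that pair was -1.55, and its windows of 10 kb ranged from -2.07 to 0.77 with an SD of 0.82. A share of lower calls near that between liver and brain was thus seen between libraries of 1 tissue. No window of the technical pair was higher by 2-fold with full template, while 70.2% were lower by 2-fold or more. Which library is set over the other is arbitrary, and with 1/16 over full template those 70.2% would be higher. The pair therefore does not set apart the direction of a difference. The top 10% of positions held 82.4% of the signal with full template and 57.1% with 1/16, and 21.2% and 0.920% of positions were empty. The part of template amount or library fill in the HS-2 comparison was not tested.

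**Figure D2:**
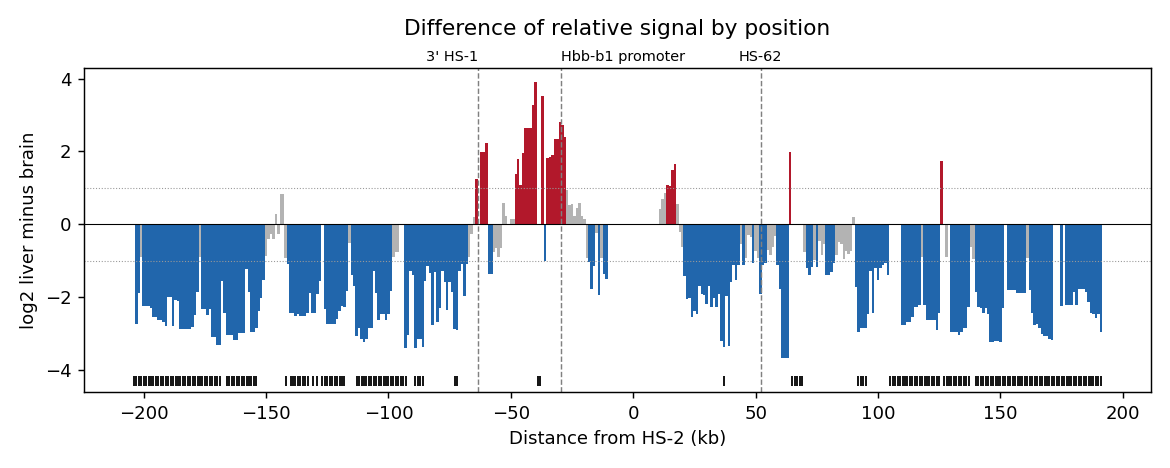
Log2 difference of relative signal, liver minus brain, at each of 375 positions against distance from HS-2 in kb. Red bars are 28 positions at least 2-fold higher in liver, blue bars 251 at least 2-fold lower, grey bars the rest, and black ticks at the bottom mark positions empty in liver, which lie mostly beyond 80 kb.

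The liver excess fell into 4 runs of at least 3 neighbouring called positions, which held 24 of the 28 higher calls. These 24 positions carried 58.8% of the liver signal and 13.8% of the brain signal. They were picked by their difference, so unequal shares follow in part from the choice. The other 4 higher calls were single positions, and brain was empty at 3 of them.

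At the adult promoter the run reached from 110971000 to 110978000. Relative signal averaged 12.5 in liver, with a range of 9.84 to 16.7, and 2.48 in brain, with a range of 1.86 to 2.86. The mean log2 difference was 2.27. The liver middle value was above the higher brain value at all 8 positions of this run, and the lower liver value was above the higher brain value at 2 of them. The highest liver position beyond 10 kb, 110977000, lay 0.5 kb from the Hbb-b1 viewpoint, with a signal of 0.212 between outer values of 0.0619 and 0.427.

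Below it, away from HS-2, the run from 110958000 to 110966000 had the largest summed difference of the liver runs. Liver averaged 6.55 and brain 0.897, a mean log2 difference of 2.36. Liver was between 1.15 and 1.20 at the 3 positions farthest from HS-2 and between 5.13 and 15.4 at the other 6, while brain stayed between 0.263 and 1.25. The liver middle value was above the higher brain value at 5 of 9 positions. Over a decay fitted to each side the mean difference of this run was 0.46, under 2-fold. Hbb-bt, the adult partner of Hbb-bs, is the next gene on this side in the gene table, and it was not placed in mm9 here. The run ends at a stretch from 110967000 to 110968000 that was empty in both libraries. Position 110966000, where the difference was 3.89, borders that stretch and was empty in both tissues with the 2 kb window.

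The third place of liver excess, from 111020000 to 111023000, lay on the other side of HS-2, 14 to 17 kb away and outside the gene cluster. Relative signal averaged 14.2 in liver and 5.70 in brain, with ranges of 13.2 to 15.5 and 4.09 to 6.64. The mean log2 difference was 1.33. Before scaling it was 0.67, over a decay fitted to both sides 0.69 and over a decay of each side 0.14. It was above 0 in all 16 alternatives and at least 2-fold in 6. The 4 positions were picked as at least 2-fold higher in liver, and the liver middle value was above the higher brain value at 0 of them. The signal as deposited averaged 0.180 in liver and 0.115 in brain. Brain was highest beyond 10 kb at 111017000, 111018000 and 111019000, all at 7.90, where liver stood at 10.6, 12.8 and 14.5. The first of these is the position next to the zone left out around HS-2, so a maximum closer in was not looked for.

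The shortest run, from 110944000 to 110946000, lay 1.5 kb from the placement of 3' HS-1 at its nearest end. Liver averaged 1.69 and brain 0.344, and brain was empty at 1 of the 3 positions. Its direction turned with wider windows, to a mean difference of -0.36 at 10 kb and -0.43 at 20 kb. It was above 0 in 20 of the 48 windows.

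Between the Hbb-b1 promoter and HS-2 mean relative signal was lower in liver. By gene order Hbb-bh3, Hbb-bh2, Hbb-bh1 and Hbb-y lie between these sites. They were not placed in mm9, and those within the 10 kb left out around HS-2, where Hbb-y may lie, were not measured. Relative signal over its 14 positions beyond 10 kb averaged 2.11 in liver and 3.19 in brain. At 0 of them was liver called higher and at 6 it was called lower, against 7.47% and 66.9% of all positions, and no position there was empty in either library. Liver was above brain at the 5 positions nearest the promoter, by 0.15 to 0.59, and below brain at the other 9. The median difference of -0.92 was less negative than the -1.81 of all positions. It was near the -1.02 of the 178 positions filled in both libraries. Of the brain maxima, 110988000 lay in this stretch, 18 kb from HS-2, with a relative signal of 4.98 in brain and 2.37 in liver. With the 49 kb window, which also takes in the promoter, its difference turned from -1.04 to 1.23. The run from 110988000 to 110990000 averaged 1.71 in liver and 4.38 in brain.

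In bins of distance the gene side went from brain excess to liver excess and back. At 10 to 20 kb from HS-2 the mean relative signal was 1.62 in liver and 3.46 in brain. At 20 to 40 kb it was 7.25 and 2.12, and at 40 to 80 kb 1.61 and 0.890. From 80 to 120 kb liver was at 0.0434 and brain at 0.524. Liver was empty at 70% of the positions of that last bin and brain at 5%. On the far side liver was at 11.02 and brain at 6.20 at 10 to 20 kb, and at 0.521 and 2.46 at 20 to 40 kb. In brain the mean of each bin was below that of the bin before it out to 40 to 80 kb on both sides, while the gene side of the liver profile peaked away from HS-2.

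HS-62 (111053000 to 111063000, 52 kb from HS-2) averaged 0.812 in liver and 1.47 in brain. Its 11 positions ran from 0.366 to 1.68 in liver and from 0.655 to 2.14 in brain, so the tissues overlapped. Liver stood at the same 0.366 at each position from 111058000, the HS-62 placement, to 111062000. That value recurs elsewhere in the liver library, as at 111079000. The log2 difference was -0.78, with 4 of 11 positions called lower and 0 higher, so lower calls were fewer than the 66.9% of all positions. Of the 178 positions filled in both libraries, as all 11 here were, 90 were called lower. Both libraries had a local maximum at the same position, 111054000, 4 kb from the HS-62 placement, with 1.68 in liver and 2.14 in brain. By rank the window was at median percentile 78.7 in liver and 85.6 in brain. Over a decay fitted to each side and over a power law the difference turned to 0.37 and 0.61.

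Unlike HS-62, the 3' HS-1 window (110937500 to 110947500, 63.5 kb from HS-2) showed calls in both directions. Liver averaged 1.10 with a range of 0.236 to 2.36, and brain averaged 0.843 with a range of 0 to 1.88. The log2 difference was 0.35, with 4 of 10 positions called higher and 2 called lower, against 7.47% and 66.9% of all positions. Liver had a local maximum in the window at 110944000 with 2.36. The nearest brain maximum was 110937000, just outside it at 5.5 kb from the placement, with 1.88. Before scaling the difference was -0.26, so its direction rests on the scale. The median rank was percentile 82.9 in liver and 51.3 in brain. Against the median of all windows of this width, -1.91, the difference was higher by 1.13 at HS-62 and by 2.26 at 3' HS-1, at percentiles 80.5 and 88.5. The Hbb-b1 promoter was higher by 3.88, at percentile 96. Those windows include positions empty in liver, and the median of single positions filled in both libraries was -1.02.

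Brain excess was widest at a distance from HS-2. There were 20 runs of lower liver signal with 239 positions. They held 7.44% of the liver signal and 51.6% of the brain signal, which follows in part from how the positions were picked. Liver was empty at 158 of these positions and brain at 0. In 12 of the 20 runs more than 50% of the positions were empty in liver. The runs with the largest summed difference reached from 110830000 to 110855000 and from 110806000 to 110828000, on the flank below 3' HS-1, the side of Olfr67 to Olfr69 by gene order. Brain averaged 0.615 and 0.474 there, and liver was empty at 21 of 26 and 23 of 23 positions. The runs from 110913000 to 110938000 and from 110891000 to 110907000 averaged 0.888 and 0.538 in brain against 0.172 and 0.0151 in liver.

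On the side of HS-62, the run from 111027000 to 111049000 had 1 of 23 positions empty in liver, the fewest among the 5 largest. Not empty means only that the signal reached the cutoff for empty, and much of the run was low in liver. From 111036000 to 111048000 liver relative signal was at most 0.366, a value that recurs in the liver library. It was 0.0138 at 111042000 and 1.83e-05 at 111045000. Liver averaged 0.504 and brain 2.28, a mean log2 difference of -2.08. Liver was at most 1.82 in this run, and brain ranged from 0.901 to 5.04. The brain middle value was above the higher liver value at 19 of the 23 positions, and the lower brain value was above the higher liver value at 11. Liver went from 13.2 at 111023000 to 1.82 at 111027000 and 0.596 at 111030000. Brain stood at 4.09, 5.04 and 3.98 at the same positions, so brain showed no such drop between them. Nearer HS-2, brain had already gone from 7.90 at 111019000 to 4.09 at 111023000.

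The total signal was also divided among stretches of the locus, with no call. The Hbb-b1 promoter window, 2.67% of the positions, took 27.6% of the liver total and 6.88% of the brain total. From 3' HS-1 to that window, liver held 21.1% and brain 5.89%. From the promoter window to HS-2 the shares were 7.86% in liver and 11.9% in brain. The stretch between HS-2 and HS-62 held 33.2% and 31.9%. The flank below 3' HS-1 held 1.67% in liver and 19.04% in brain, and the flank beyond HS-62 held 3.25% and 17.8%. These flanks hold 36.3% and 35.7% of the positions, so both libraries were below their mean there and liver further below.

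**Figure D3:**
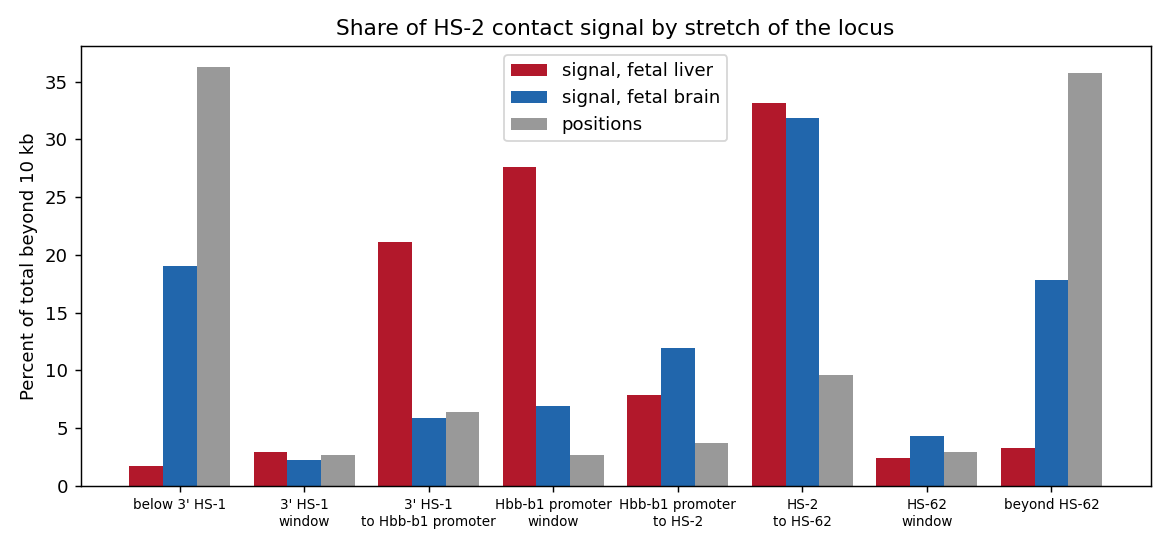
Percent of the signal beyond 10 kb of HS-2 in each stretch of the locus, in fetal liver (red) and fetal brain (blue), with the percent of positions in the stretch (grey), 1 library each. Stretches run from the lower-coordinate flank to the higher one; the Hbb-b1 promoter window takes 27.6% in liver and 6.88% in brain.

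Over distances covered on both sides, up to 191 kb, the share of the gene side was 61.2% for liver and 45.3% for brain. Across the 48 windows these shares ran from 57.1% to 66.9% and from 44.2% to 46.6%. The gap was 12.9 to 20.96 percentage points. With 20 kb left out around HS-2 the liver share was 85.8%, since the maximum at 111022000 then dropped out. In the technical pair the share of the lower-coordinate side was 90.2% with full template and 76.8% with 1/16.

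The promoter difference was smaller with wide windows than with narrow ones. It was highest at 2.24 with the 2 kb window, then 1.91 at 10 kb, 1.62 at 20 kb and 1.40 at 30 kb, and lowest at 0.94 with the 47 kb window. It was above 0 in all 48 windows and at least 2-fold in 43. Liver relative signal at the promoter went from 11.3 at 2 kb to 4.41 at 49 kb while brain was at 2.31 and 2.21, so the liver value moved most. The difference at HS-62 was below 0 in all 48 windows and past 2-fold in 21, between -1.24 and -0.71. At 3' HS-1 it was above 0 in 4 windows and below 0 in 44, between -0.66 and 0.38, so no direction is given for that site.

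**Figure D4:**
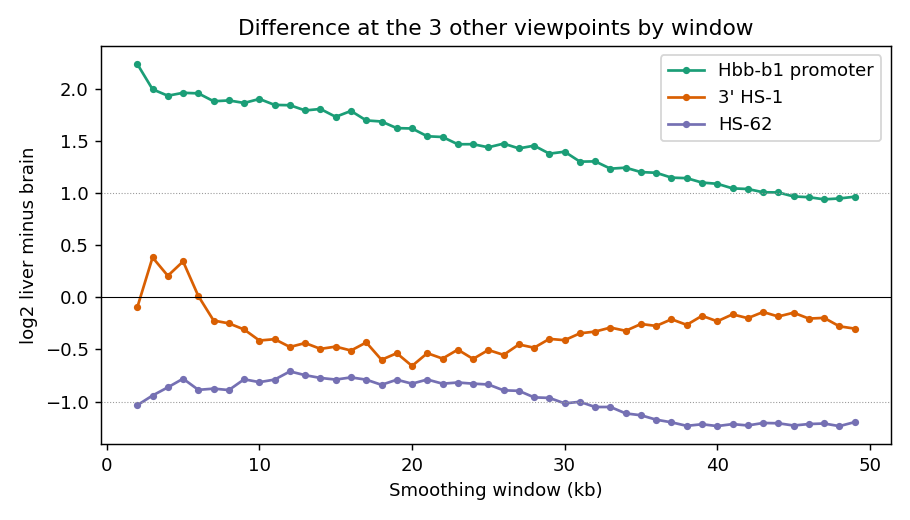
Log2 difference of relative signal, liver minus brain, within 5 kb of the Hbb-b1 promoter, 3' HS-1 and HS-62, against the smoothing window in kb. The promoter stays between 0.94 and 2.24, HS-62 between -1.24 and -0.71, and 3' HS-1 crosses 0; dotted lines mark 2-fold.

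The runs behaved differently under smoothing. The run from 110958000 to 110966000 stayed past 2-fold in all 48 windows, between 1.29 and 2.36, and the promoter run in 43. The far-side run at 111020000 stayed above 0 in all windows but past 2-fold in 7. On the gene side, at least 20 kb from HS-2, the highest liver position was between 110975000 and 110977000 with windows of 2 to 6 kb. With 10 kb it was 110972000, within the promoter run, and with 20 and 30 kb it was 110970000 and 110968000, between that run and the run below it. With 7 kb the highest liver position was 110967000. With windows of 39 to 49 kb it lay between 110983000 and 110986000, at 110986000 in 7 of them. The highest brain position was 110986000 in 31 of the 48 windows. That position is the near edge of the 20 kb limit, reached in liver only with these wide windows.

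**Figure D5:**
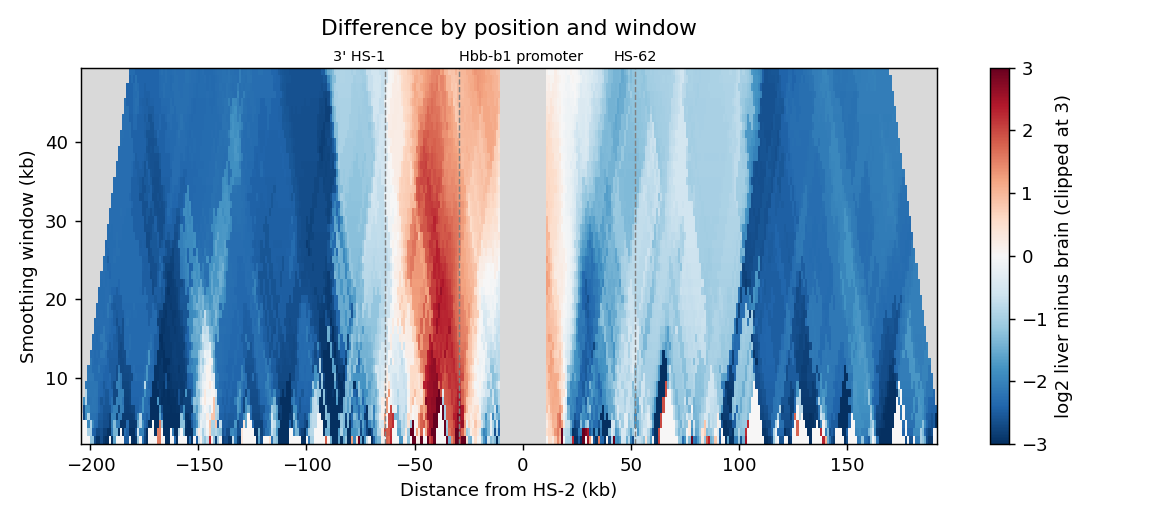
Log2 difference of relative signal, liver minus brain, by distance from HS-2 (kb, horizontal) and smoothing window (kb, vertical); red is higher in liver, blue higher in brain, grey has no value. The mean over the Hbb-b1 promoter and the mean over the run below it are above 0 at every window, with single positions between them white or blue at narrow windows, and most of the rest is blue, as the median differences of -2.05 to -0.56 over the windows show.

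Empty positions in brain fell from 40.5% with the 2 kb window to 0% in 40 of the 48 windows, whereas in liver they stayed between 42.9% and 57.9%. Across positions the log2 relative signals of both libraries had a Pearson's r of 0.669 and a Spearman's rho of 0.658 at 5 kb. At 2 kb they were 0.530 and 0.586, and at 49 kb 0.934 and 0.954. These are descriptions over 375, 378 and 331 overlapping positions, which share the decay with distance.

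The contact was also read from its other end. From the Hbb-b1 promoter viewpoint, HS-2 stood at 12.3 in the liver library and at 2.99 in the brain library, and the log2 difference was 2.00. In that comparison 7.45% of positions were called higher in liver and 66.8% lower. From 3' HS-1, HS-2 stood at 1.71 for liver and 1.27 for brain, and the difference was 0.40. In the HS-62 library, which was made from liver with NlaIII and DpnII, HS-2 averaged 2.38.

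The far-side run from 111020000 to 111023000 was high from the other viewpoints as well. From the Hbb-b1 promoter it averaged 9.04 in liver and 1.45 in brain, a difference of 2.56. From 3' HS-1 it averaged 5.87 and 1.07, a difference of 2.36, in a comparison with 24.2% of positions called higher in liver and 12.2% lower. From HS-62 in liver it averaged 4.26, at percentile 98.4 of that library. From HS-2, 14 to 17 kb away, the difference was 1.33, and the gap between viewpoints was not tested.

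The run from 110958000 to 110966000 was high in both tissues from the Hbb-b1 promoter, at 6.79 for liver and 4.86 for brain. These are percentiles 94.7 and 97.6 of those libraries. The near end of the run, 110966000, lay 10.5 kb from that viewpoint, just beyond the 10 kb left out. These values and ranks were not corrected for distance. From 3' HS-1 the run averaged 1.65 and 2.41. The differences were 0.48 and -0.52. The run from 111027000 to 111049000 was lower in liver from the Hbb-b1 promoter as well, with a difference of -1.28. From 3' HS-1 its direction turned, with 0.861 in liver, 0.602 in brain and a difference of 0.45.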

How the data were processed

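The authors deposited a normalized, smoothed signal, per the names of the files, which have no header. The submitters' processing notes name mm9 as the build. No source used here names the aligner, the filters or the number of reads. Depth is therefore unknown, and no interval is given. The order lower, middle, higher held at 100% of positions.

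From the deposited signal, relative signal, differences, runs and maxima were computed with Python 3.11.15, NumPy 2.4.6 and pandas 2.3.3, and tested on simulated profiles. Monotone decays used scikit-learn 1.9.0. Each viewpoint was placed where its libraries peaked, by their median. Named positions were the 3 other viewpoints, up to 6 maxima per library that were highest within 10 kb and above the library mean, and up to 5 runs per direction by summed difference. The libraries, targets and rules were chosen with earlier results of these data known. Shares by stretch and the values from other viewpoints were added after the data were seen. Alternatives covered windows, the zone left out, the outer columns, empty positions, pseudocounts of 0.05 and 0.2, scaling, decay and target width.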

Additional observations from a re-analysis of the deposited data

How the results depend on the processing

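The difference at the Hbb-b1 promoter was above 0 in all 19 alternatives and at least 2-fold in 17. It was 0.97 with the 49 kb window and 0.80 over a monotone decay fitted to each side, and 2.61 with upper-quartile scaling. At 3' HS-1 it was -0.66 with the 20 kb window and 1.97 over a power-law decay. At HS-62 it was -1.93 with the lower window values, and it turned to 0.37 over a decay of each side and 0.61 over a power law. Higher calls were 58, 50 and 80 over a monotone decay of both sides, of each side and a power law, and 69 with quantile scaling, which was chosen after seeing the data. Lower calls were 62, 35, 80 and 47 in these settings, and 100 with empty positions left out, where 178 positions remained. Thus the balance of higher and lower calls depends on scaling and decay, and the cause was not tested. The liver share of the gene side moved to 85.8% with 20 kb left out. Exact zeros were 30.4% of liver positions. The excess at 110944000 turned to -0.17, -0.65 and -0.077 with windows of 10, 20 and 49 kb, and its run to -0.36 and -0.43 at 10 and 20 kb. The brain excess at 110988000 turned to 1.23 at 49 kb. The far-side run at 111020000 fell to 0.14 over a decay of each side and 0.13 with quantile scaling. No paired analysis was possible because each group had 1 library.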
